A study of Mus musculus with 6 samples.

Results

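The C-type lectin receptors examined here are 10 genes: Clec4a2, Clec4d, Clec4e, Clec4n, Clec5a, Clec7a, Clec10a, Clec12a, Mgl2 and Mrc1. They were chosen by name, with earlier results of these data known. All 10 were found by gene symbol among the 22672 genes listed for each library. The libraries are RNA sequencing libraries of BV2, an immortalized mouse microglial cell line. The 3 libraries of the group shscr-ctr carry a hairpin whose label reads as a scrambled control, and the 3 of the group shNumb-ctr carry one named for Numb, an adaptor protein that antagonizes Notch receptors. The labels give no vector, clone, time or treatment, the suffix ctr is not spelled out, and the 3 samples of a group are not said to be separate cultures, so the p-values cover no more than the variation among these samples, possibly technical.

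C-type lectin receptors are cell surface proteins of myeloid cells that bind sugars, glycolipids or other ligands of microbes and dying cells through a shared fold, the C-type lectin-like domain. Several of them signal through the kinase Syk and the adaptor Card9 to NF-kB, either by their own tyrosine motif, as Clec7a (Dectin-1) does, or through the adaptors Fcer1g, used by Clec4e (Mincle) and Clec4n (Dectin-2), and Tyrobp (DAP12), used by Clec5a. Others carry an inhibitory tyrosine motif that recruits phosphatases such as Ptpn6, as Clec4a2 (DCIR) and Clec12a do, or act mainly as endocytic receptors, as the mannose receptor Mrc1 and the galactose-binding lectins Clec10a and Mgl2 do.

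Coding stretches are shown for the sugar-contacting triplet and the cytoplasmic tyrosine motif, which mark some of these classes but do not separate them all. They are taken from GENCODE mouse release M21 (GRCm38), since the authors' build is not given in the sources used here. Each is written 5′ to 3′ on the coding strand, within 1 exon. In the first set, labelled by the type of triplet, the capitals mark the codons of the sugar-contacting triplet of the lectin domain, which in C-type lectins is typically Glu-Pro-Asn for mannose-type and Gln-Pro-Asp for galactose-type ligands.
Clec4e, mannose type, chr6:123283651-123283696, minus strand: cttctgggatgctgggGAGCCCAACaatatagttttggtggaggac
Clec4n, mannose type, chr6:123246441-123246486, plus strand: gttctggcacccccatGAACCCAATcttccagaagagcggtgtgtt
Mrc1, mannose type, chr2:14294806-14294856, plus strand: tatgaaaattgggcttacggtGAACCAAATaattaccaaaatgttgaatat
Clec10a, galactose type, chr11:70170418-70170463, plus strand: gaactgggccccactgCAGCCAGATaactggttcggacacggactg
Mgl2, galactose type, chr11:70136921-70136966, plus strand: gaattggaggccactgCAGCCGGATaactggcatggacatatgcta
Clec4a2, neither type, chr6:123142363-123142408, plus strand: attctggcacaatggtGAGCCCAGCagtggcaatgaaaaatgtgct
In Mrc1, which has several lectin domains, the triplet was found at residues 743 to 745, shown here, and again at residues 889 to 891. The search, made on the coding sequences of the principal annotated transcripts, also required the Trp-Asn-Asp triplet that usually follows, and found no match in Clec4d, Clec5a, Clec7a or Clec12a.

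In the second set the capitals mark the codons of the cytoplasmic tyrosine motif.
Clec7a, activating, chr6:129472611-129472664, minus strand: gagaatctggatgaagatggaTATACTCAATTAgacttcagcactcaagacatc
Clec4a2, inhibitory, chr6:123123588-123123638, plus strand: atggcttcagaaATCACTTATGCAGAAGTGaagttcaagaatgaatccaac
Clec12a, inhibitory, chr6:129350421-129350471, plus strand: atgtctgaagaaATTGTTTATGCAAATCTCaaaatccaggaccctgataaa
Mgl2 and Clec10a are neighbours on chromosome 11, with 91.1% identity over 912 aligned coding bases. Clec4n, Clec4d and Clec4e follow each other on chromosome 6 with no other protein-coding gene between them, and Clec4d and Clec4e are 57.7% identical over 612 aligned coding bases.

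The deposited values, taken to be FPKM, a unit scaled by gene length and library depth, gave library sums from 451077 to 455561, with 13513 to 13823 genes above 0. The depth behind each value is unknown. Numb itself was at 36.2 ± 0.455 FPKM in shscr-ctr and 38.4 ± 1.44 in shNumb-ctr (n = 3, SD, log2 fold change 0.08, limma adjusted p = 0.137). Because the targeted gene was not lower, directions are stated for the libraries labelled shNumb-ctr relative to those labelled shscr-ctr. Ifi204, the other gene of the series' title, was at 13.0 ± 0.168 and 15.0 ± 0.861 FPKM (SD, n = 3, limma adjusted p = 0.0269). Its call was lost in 6 of 12 alternatives, and other genes hold 30.7% of its transcript windows. Markers shared by macrophages and microglia were present, such as Csf1r (102 and 92.5 FPKM in the 2 groups) and Cd68 (543 and 608), while the microglia-specific Sall1 was listed at 0 in all 6 libraries and Tmem119 was at 1.79 and 1.48. One library, shNumb-ctr replicate 2, stood apart in genes induced by inflammatory stimulation: it held 4.14 FPKM of Il1b (the other 5 held 0.810 or less), 31.6 of Lcn2 (7.69 or less) and 68.3 of Saa3 (30.9 or less).

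Only 1 of the 10 receptors differed between the groups past the threshold: Mrc1, the macrophage mannose receptor, fell in the libraries labelled shNumb-ctr. Of the other 9, 7 were tested and not called, and Clec4a2 and Clec12a were too low to test. A gene was tested when it reached 1 FPKM in at least 3 libraries and called at a limma adjusted p under 0.05 over all 10594 genes tested. By that rule 18.8% of all tested genes were called, 8.11% higher and 10.7% lower, so 1 of 8 tested receptors is near the background share. The median log2 fold change was 0.07 over the 8 tested receptors and -0.02 over all tested genes. In bulk RNA, fewer cells with a transcript and less of it per cell cannot be told apart.

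In shscr-ctr, Mrc1 was at 1.91 FPKM in replicate 1, 1.69 in replicate 2 and 1.93 in replicate 3, and in shNumb-ctr at 0.950, 0.942 and 1.27 FPKM in the same order. All 3 libraries labelled shNumb-ctr were below all 3 labelled shscr-ctr, with no overlap, as in 23.6% of all tested genes in this direction. The means were 1.84 ± 0.134 and 1.06 ± 0.188 FPKM (SD, n = 3), a fold of 0.572. On the scale of log2(FPKM + 1), which understates changes at such low levels, Mrc1 fell by 0.47 (SE 0.0892, 95% interval -0.68 to -0.27, limma adjusted p = 0.0115). With a pseudocount of 0.1 the log2 fold change of Mrc1 was -0.76. The call was kept in all 13 alternatives, with adjusted p from 0.00580 to 0.0422. Mrc1 met the filter through its 3 shscr-ctr libraries and 1 shNumb-ctr library. None of its transcript windows occurs in another gene.

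**Figure D1:**
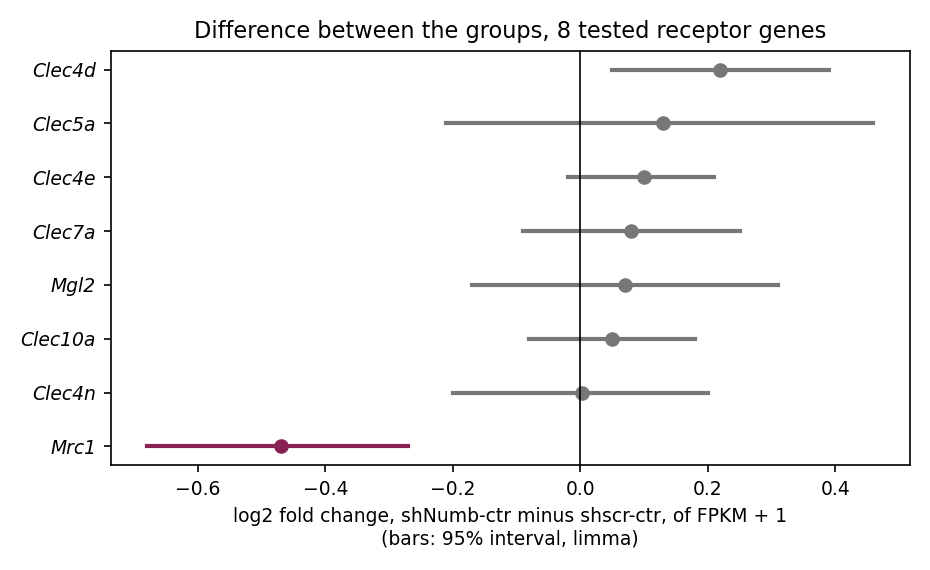
Log2 fold change of FPKM + 1 between the groups (x axis, shNumb-ctr minus shscr-ctr) for the 8 tested receptor genes, with 95% intervals from limma; the called gene is purple and the others grey. Mrc1 lies at -0.47 with its interval below 0, and Clec4d at 0.22 is the highest of the others, with an adjusted p of 0.0695.

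The receptors fell into 3 bands of level that were separated in every library. Clec10a, Clec4d, Clec4e, Clec5a, Clec7a and Mgl2 were between 8.79 and 34.9 FPKM, Clec4n and Mrc1 between 0.942 and 2.00, and Clec4a2 and Clec12a between 0.0653 and 0.170. By mean over the 6 libraries the order was Clec10a (31.7 FPKM), Clec4d (28.3), Clec4e (26.5), Clec5a (18.0), Clec7a (15.6), Mgl2 (10.5), Clec4n (1.74), Mrc1 (1.45), Clec4a2 (0.126) and Clec12a (0.119). The ranges over libraries overlapped between Clec10a and Clec4d, Clec4d and Clec4e, Clec5a and Clec7a, Clec4n and Mrc1, and Clec4a2 and Clec12a. They did not overlap for the other 4 neighbouring pairs. The 10 genes summed to 122 to 133 FPKM in shscr-ctr and 134 to 143 FPKM in shNumb-ctr, of which Clec10a, Clec4d, Clec4e and Clec5a made up 76.5% to 79.5%. No receptor was called higher, and the difference in the sums was not tested. The lowest sum was that of shscr-ctr replicate 2, which also held the lowest Clec5a, 12.7 FPKM.

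**Figure D2:**
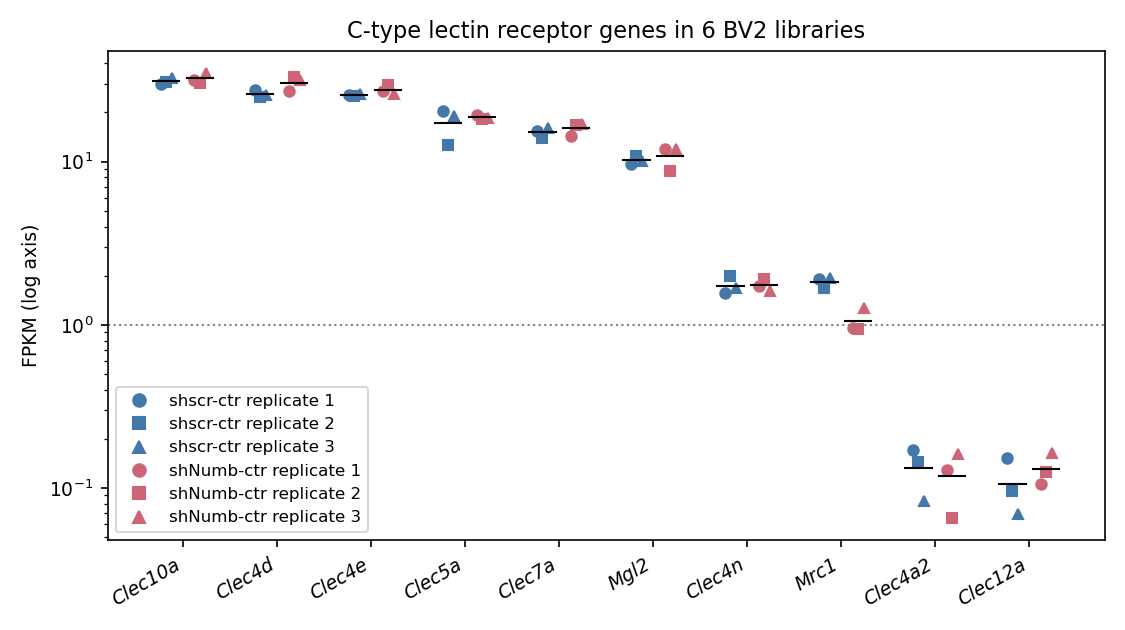
FPKM on a log axis for the 10 receptor genes in the 6 libraries, ordered by mean; blue is shscr-ctr, red is shNumb-ctr, symbols are replicates, black lines are group means and the dotted line is the filter at 1 FPKM. Clec4a2 and Clec12a stay at or below 0.170 FPKM, and Mrc1 is the gene whose groups do not overlap.

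Among the activating receptors, Clec4d (also called MCL), which pairs with Mincle, had the highest fold change without passing the threshold. Clec4d was at 27.5, 24.9 and 25.6 FPKM in shscr-ctr, by replicate number, and at 27.1, 33.2 and 31.4 in shNumb-ctr. Replicates 2 and 3 of shNumb-ctr were above every shscr-ctr library, and replicate 1 was inside their range. The means of Clec4d were 26.0 ± 1.35 and 30.5 ± 3.11 FPKM (SD, n = 3), a fold of 1.17 (log2 0.22, SE 0.0722, limma adjusted p = 0.0695). Clec4d crossed the threshold in 2 of 13 alternatives, without shNumb-ctr replicate 1 (adjusted p = 0.0200) and without genes that share transcript windows (adjusted p = 0.0491). Its highest library was shNumb-ctr replicate 2, the one high in stimulation genes, and without it the log2 fold change was 0.16 (limma adjusted p = 0.162).

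Clec4e, the receptor Mincle for mycobacterial glycolipids and for a nuclear protein of dying cells, was at 25.7, 25.1 and 25.9 FPKM in shscr-ctr and at 27.0, 29.5 and 25.8 FPKM in shNumb-ctr. It, too, was highest in shNumb-ctr replicate 2, and the third replicate of shNumb-ctr lay within the range of shscr-ctr. The means were 25.5 ± 0.407 and 27.4 ± 1.87 FPKM (n = 3, SD, log2 change 0.10, SE 0.0494, limma adjusted p = 0.201). Without shNumb-ctr replicate 2 the log2 fold change of Clec4e was 0.05 (limma adjusted p = 0.460). The part of that library's stimulation genes in the levels of Clec4d and Clec4e was not tested. The ratio of Clec4d to Clec4e was 0.990 to 1.07 in shscr-ctr and 1.00, 1.13 and 1.22 in shNumb-ctr.

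Clec7a, the beta-glucan receptor Dectin-1, was at 15.5, 14.0 and 16.0 FPKM in shscr-ctr and 14.4, 16.8 and 17.1 FPKM in shNumb-ctr, with overlapping groups (means 15.1 ± 1.05 and 16.1 ± 1.46, n = 3, SD, log2 change 0.08, 95% interval -0.09 to 0.25, limma adjusted p = 0.462). Clec4n, the mannan receptor Dectin-2, was at 1.56, 2.00 and 1.68 FPKM in shscr-ctr and 1.72, 1.92 and 1.60 in shNumb-ctr. Its 3 shNumb-ctr values lay inside the range of shscr-ctr (log2 0.0027, 95% interval -0.20 to 0.20, limma adjusted p = 0.986). Although Clec4n lies next to Clec4d in the genome, its level was far below that of Clec4d in every library. Clec5a, which in human macrophages takes part in the response to dengue virus, was at 20.4, 12.7 and 18.9 FPKM in shscr-ctr and 19.3, 18.2 and 18.5 in shNumb-ctr. For Clec5a shscr-ctr replicate 2 stood below the other 5 libraries. Its log2 fold change was 0.13 (95% interval -0.21 to 0.46, limma adjusted p = 0.569), and -0.07 without that library (limma adjusted p = 0.381).

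Both inhibitory receptors were close to 0. Clec4a2 was at 0.170, 0.145 and 0.0835 FPKM in shscr-ctr and 0.129, 0.0653 and 0.161 in shNumb-ctr. Clec12a, which recognises uric acid crystals, was at 0.152, 0.0960 and 0.0695 FPKM in shscr-ctr and 0.105, 0.126 and 0.163 in shNumb-ctr. The groups overlapped for both genes, and neither reached 1 FPKM in any library. In contrast, Ptpn6 (SHP-1), a phosphatase recruited by such motifs, was at 144 ± 1.50 FPKM in shscr-ctr and 133 ± 4.86 in shNumb-ctr (SD, n = 3). Ptpn6 fell (log2 -0.12, SE 0.0318, limma adjusted p = 0.0342), 1 of 6 tested genes of the phosphatase list (16.7% lower, against 10.7% of all genes), but the call was lost in 8 of 13 alternatives, with adjusted p up to 0.0923.

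The galactose-type lectins showed no difference past the threshold. Clec10a (MGL1 in mouse) was at 29.9, 30.7 and 32.7 FPKM in shscr-ctr and 31.6, 30.3 and 34.9 in shNumb-ctr (means 31.1 ± 1.47 and 32.3 ± 2.40, n = 3, SD, log2 change 0.05, 95% interval -0.08 to 0.18, limma adjusted p = 0.560). Mgl2 was at 9.71, 10.8 and 10.1 FPKM in shscr-ctr and 11.9, 8.79 and 11.9 in shNumb-ctr (log2 0.07, 95% interval -0.17 to 0.31, limma adjusted p = 0.678). Mgl2 was lowest in shNumb-ctr replicate 2 and higher in the other 2 shNumb-ctr libraries than in any of shscr-ctr. The ratio of Clec10a to Mgl2 ran from 2.84 to 3.23 in shscr-ctr and from 2.67 to 3.44 in shNumb-ctr. The pair share transcript sequence, in 10.5% of the windows of Clec10a and 16.4% of those of Mgl2, so the split of reads between them is less certain than for the other receptors.

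Among 8247 other tested genes that averaged 5 FPKM or more, those whose library-by-library deviations lay nearest to those of Mrc1 were Plekhg5, Fgd4 and Celf2, with root mean square distances of 0.0825, 0.0842 and 0.0889 on the log2 scale over the 6 libraries. The median distance of a gene to Mrc1 was 0.331. The log2 fold changes of Plekhg5, Fgd4 and Celf2 were -0.40, -0.38 and -0.36. These genes were picked by that distance, so fold changes near that of Mrc1 follow from the choice. The scale used for the distance understates the change of Mrc1, whose log2 fold change was -0.76 with a pseudocount of 0.1. Genes at 5 FPKM or more are less affected by the pseudocount, so a small distance does not mean a similar fold in FPKM.

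Mrc1 is classed with the genes of alternative macrophage activation, which interleukin-4 induces through its receptor and the transcription factor Stat6. Of the 20 genes of that list in the tables, 7 were tested, Il4ra and Stat6 fell (28.6%, against 10.7% of all genes) and Tgm2 rose (14.3%, against 8.11%), with a median log2 fold change of -0.03 against -0.02 over all tested genes. Il4ra, the interleukin-4 receptor chain, was at 6.45, 7.57 and 6.97 FPKM in shscr-ctr and 4.85, 5.29 and 4.95 in shNumb-ctr (means 7.00 ± 0.560 and 5.03 ± 0.234, n = 3, SD, log2 change -0.41, SE 0.0653, limma adjusted p = 0.00638). Its groups did not overlap, as in 23.6% of all tested genes in this direction. Stat6 was at 44.7 ± 0.454 FPKM in shscr-ctr and 38.9 ± 0.839 in shNumb-ctr (n = 3, SD, log2 change -0.20, limma adjusted p = 0.00559). Tgm2, transglutaminase 2, went the other way, from 3.83 ± 0.0815 in shscr-ctr to 5.41 ± 0.146 FPKM (n = 3, SD, log2 change 0.41, limma adjusted p = 0.00282). These 3 calls were kept in all 13 alternatives. Whether the lower Il4ra and Stat6 have a part in the level of Mrc1 was not tested. Arg1, which makes ornithine from arginine, was at 12.9, 12.7 and 10.5 FPKM in shscr-ctr and 13.8, 12.9 and 14.9 in shNumb-ctr (limma adjusted p = 0.123), and Cd163, Retnla and Chil3 were listed at 0 in all 6 libraries.

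Fcer1g and Tyrobp, adaptors of the activating receptors, were far more abundant than the receptors and rose slightly. Fcer1g was at 293, 296 and 287 FPKM in shscr-ctr and 332, 321 and 339 in shNumb-ctr (log2 0.18, SE 0.0289, limma adjusted p = 0.00638). Tyrobp was at 310, 327 and 324 FPKM in shscr-ctr and 381, 349 and 384 in shNumb-ctr (log2 0.21, SE 0.0409, limma adjusted p = 0.0122). The calls of Fcer1g and Tyrobp were kept in all 13 alternatives. Hcst, another adaptor, was at 11.4 ± 1.34 FPKM in shscr-ctr and 14.5 ± 1.37 in shNumb-ctr (SD, n = 3), within the range of the receptors. It also rose (log2 0.33, SE 0.0911, limma adjusted p = 0.0409), but its call was not kept in all 13 alternatives. In some fits that left out 1 library, Fcer1g and Tyrobp were the only 2 adaptor and signalling genes called higher. Over the whole list of adaptors and signalling genes, 6 of 31 tested were higher (19.4%, against 8.11% of all genes) and 4 lower (12.9%, near the 10.7% of all genes), with a median log2 fold change of -0.02, the same as over all tested genes.

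Downstream of the adaptors, Pik3cd, a catalytic subunit of a phosphoinositide kinase, fell, with means of 59.4 ± 1.41 and 50.4 ± 1.28 FPKM (n = 3, SD, log2 change -0.23, limma adjusted p = 0.00399), a call kept in all 13 alternatives. Prkcd, the protein kinase C isoform that acts on Card9, rose by 0.12 (log2, limma adjusted p = 0.0232), and Traf6 and Tab2, of the path to NF-kB, fell by 0.18 and 0.14 (log2, limma adjusted p = 0.0353 and 0.0375). Of 13 alternatives, 6, 7 and 8 ended the calls of Prkcd, Traf6 and Tab2, with adjusted p up to 0.0695, 0.0990 and 0.120. Without shscr-ctr replicate 1, 3 or shNumb-ctr replicate 1, 2 genes of the list were higher and 1 lower, and without shscr-ctr replicate 2 the counts were 3 and 2. Without shNumb-ctr replicate 2, 2 were lower, and without shNumb-ctr replicate 3, 3 were higher and 1 lower. After median-of-ratios rescaling or quantile normalization 7 were higher and 2 lower, and with no filter 4 and 2. With 1 library left out, the called genes among all tested genes also dropped, from 1989 to between 964 and 1526. The central kinase Syk was at 19.1 ± 1.00 and 18.5 ± 0.332 FPKM (SD, n = 3, limma adjusted p = 0.602), and Card9 was at 45.5 ± 0.544 and 42.1 ± 1.97 (limma adjusted p = 0.0821). Bcl10 was at 16.9 ± 1.02 and 17.3 ± 0.812 FPKM and Malt1 at 10.5 ± 0.509 and 11.7 ± 0.146 (limma adjusted p = 0.677 and 0.0622).

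**Figure D3:**
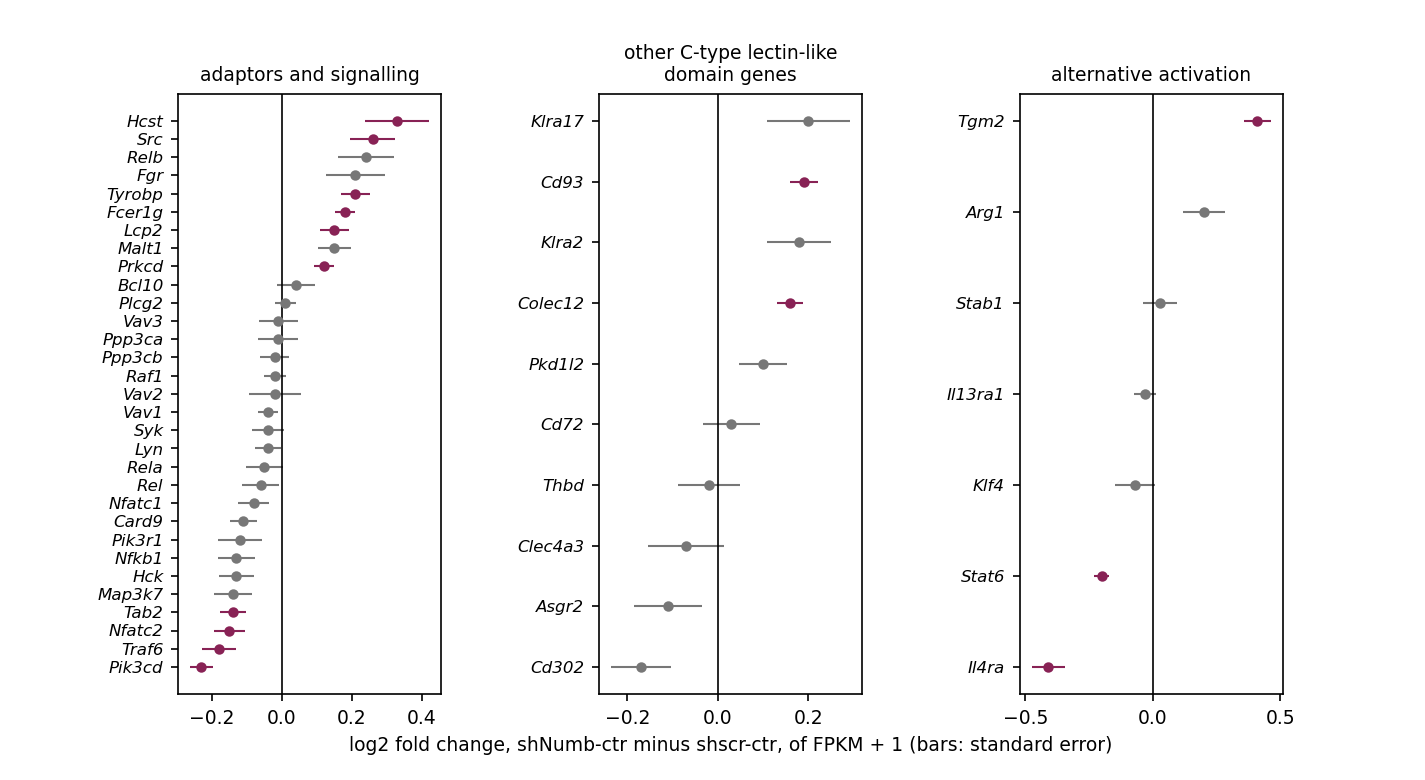
Log2 fold change of FPKM + 1 between the groups (x axes, shNumb-ctr minus shscr-ctr, with different ranges) for the tested genes of 3 lists, with standard errors; called genes are purple and the others grey. Fcer1g and Tyrobp lie at 0.18 and 0.21, Cd93 and Colec12 at 0.19 and 0.16, and Il4ra and Stat6 at -0.41 and -0.20.

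Among 75 other genes with a C-type lectin-like domain, 38 were listed at 0 in all 6 libraries and 10 were tested, of which Cd93 and Colec12 rose and 0 fell in limma (2 of 10 higher, against 8.11% of all genes, median log2 fold change 0.06). At an unadjusted p under 0.05, 3 of these 10 were higher and 1 lower, while 3725 of all 10594 tested genes differed in either direction. The filter kept only genes with some expression, so these 10 do not stand for the family. Cd93 went from 53.8 ± 0.355 in shscr-ctr to 61.5 ± 1.76 FPKM, and Colec12, a scavenger receptor, from 31.1 ± 0.190 in shscr-ctr to 35.0 ± 0.311 (n = 3, SD, log2 change 0.19 and 0.16, limma adjusted p = 0.00647 and 0.00887). In all 13 alternatives both calls were kept. Clec4a3, a paralog of Clec4a2 in the same cluster, was at 3.10 to 3.92 FPKM in shscr-ctr and 3.25 to 3.63 in shNumb-ctr, above Clec4a2 in every library (limma adjusted p = 0.605).

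Of 12 tested other receptors of fungi and mycobacteria, Lgals3 and Itgam were higher (16.7%, against 8.11% of all genes) and Tlr2 and Tlr1 lower (16.7%, against 10.7%), with a median log2 fold change of 0.03. Tlr2, which acts with Dectin-1 on yeast particles, went from 20.7 ± 0.250 in shscr-ctr to 17.6 ± 0.535 FPKM and its partner Tlr1 from 5.90 ± 0.0913 in shscr-ctr to 4.55 ± 0.319 (n = 3, SD, log2 change -0.22 and -0.31, limma adjusted p = 0.00738 and 0.0112). Lgals3, the galactose-binding galectin-3, rose from 643 ± 19.1 in shscr-ctr to 745 ± 8.65 FPKM (n = 3, SD, log2 change 0.21, limma adjusted p = 0.00345). Itgam rose by 0.21 (log2, limma adjusted p = 0.00628), but 72.2% of its transcript windows occur in other genes.

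Of 16 tested transcription factors of myeloid genes, 0 were higher and 5 lower in limma (31.2% lower, against 10.7% of all genes), with a median log2 fold change of -0.06. Cebpa went from 6.44 ± 0.341 in shscr-ctr to 3.98 ± 0.217 FPKM, Spi1 (PU.1) from 95.1 ± 1.96 in shscr-ctr to 86.0 ± 1.48 and Maf from 7.68 ± 0.544 in shscr-ctr to 5.71 ± 0.562 (n = 3, SD, log2 change -0.58, -0.14 and -0.37, limma adjusted p = 0.00132, 0.0137 and 0.0147). Irf8, an interferon regulatory factor, was at 40.3, 39.9 and 38.2 FPKM in shscr-ctr and 36.4, 35.6 and 35.9 in shNumb-ctr (log2 -0.13, SE 0.0328, limma adjusted p = 0.0305). Irf1, of the same family, went from 14.2 ± 0.331 in shscr-ctr to 12.7 ± 0.224 FPKM (n = 3, SD, log2 change -0.16, limma adjusted p = 0.0294). The calls of Irf8 and Irf1 were each lost in 8 of 13 alternatives, and that of Spi1 in 1, without shscr-ctr replicate 1 (limma adjusted p = 0.0519). At an unadjusted p under 0.05, 1 of the factors was higher, Mitf (7.60 ± 0.141 and 8.51 ± 0.358 FPKM, SD, n = 3, limma adjusted p = 0.0730), and 6 were lower. Over all tested genes, 3725 of 10594 differed in either direction at that unadjusted threshold. Cebpb, a factor of inflammatory gene induction, was at 67.1 ± 4.68 and 69.1 ± 4.58 FPKM (SD, n = 3, limma adjusted p = 0.668). After median-of-ratios rescaling Mitf was higher and 3 were lower, after quantile normalization Mitf was higher and 4 were lower, and with the replicate block 3 were lower. The lower ones numbered 2 without shscr-ctr replicate 1 and 3 without shscr-ctr replicate 2 or any single shNumb-ctr replicate. With 1 library left out, the lower calls among all tested genes also dropped, from 1130 to between 465 and 869.

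Of 11 tested stimulation genes, Ccl5 and Acod1 rose (18.2%, against 8.11% of all genes) and 0 fell in limma (2 and 0 also at an unadjusted p under 0.05). Over all tested genes, 3725 of 10594 differed in either direction at the unadjusted threshold. The list's median log2 fold change was 0.35, but 0.0040 without shNumb-ctr replicate 2, 0.54 without shNumb-ctr replicate 1 and 0.56 without shNumb-ctr replicate 3, while the calls of Ccl5 and Acod1 were kept in all 13 alternatives. The summed level of that list was 177 to 190 FPKM in shscr-ctr and 187 to 313 in shNumb-ctr, with the highest in shNumb-ctr replicate 2. Of 13 tested microglia and macrophage markers, 6 were higher (46.2%, against 8.11% of all genes) and 2 lower (15.4%, against 10.7%). Markers of other cells were mostly near 0: the summed level was at most 0.185 FPKM for T, NK and B cells, 0.156 for neurons, 0.486 for fibroblasts and endothelium and 2.88 for dendritic cells, most of it Zbtb46. Of the neutrophil markers Cxcr2 alone was above 1 FPKM, at 5.67 and 2.61 in the 2 groups (limma adjusted p = 5.1e-04), with S100a9, Ly6g and Ngp listed at 0. Astrocyte markers summed to 62.8 to 69.0 FPKM, all but a trace from Aldoc, with Gfap and Aqp4 listed at 0, and oligodendrocyte markers to at most 2.37 FPKM.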

How the data were processed

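BV2 cells were lysed in TRIzol and a company sequenced the RNA, per the labels' protocols. The authors deposited 1 value per gene and library, with no unit in the headers, and the values were read as FPKM because they are fractional and sum to under 1000000; TPM over part of the genes cannot be told apart from it. CASAVA and DESeq2 are named in the submitters' processing notes without version or role, and their aligner, genome build or annotation is not given in the sources used here. No label names a batch. Counts were not used here, so no counting interval is given.

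Values were analysed as log2(FPKM + 1). Genes at 1 or more in at least 3 libraries were tested with limma-trend (limma 3.58.1, R 4.3.3; no covariate, two-sided, Benjamini-Hochberg over 10594 genes, called under 0.05). The fit was tested on simulated data. The members and gene lists were chosen with earlier results of these data known. Some list genes are not reported here and are left out of the list counts and plots. Genes were named by rule: all members, Numb, Ifi204, from each list up to 3 called genes per direction by adjusted p (all where 5 or fewer were called), and the 3 nearest patterns of a called member. Il1b, Lcn2, Saa3, Csf1r, Cd68, Sall1, Tmem119, Arg1, Cd163, Retnla, Chil3, Hcst, Syk, Card9, Bcl10, Malt1, Clec4a3, Cebpb, Mitf, Zbtb46 and the other-cell markers were named after their values were seen. Shared sequence is the share of 50-base windows, every 10 bases along the longest GENCODE M21 transcript, found in another gene (98.1% of tested genes had a value). Coding stretches and identities were read with Python 3.11.15 and Biopython 1.88. The 13 alternatives are a pseudocount of 0.1, no filter, 3 rescalings, leaving out genes by shared windows, the replicate block and leaving out each library. Leaving out by shared windows dropped genes with over 20% shared windows and genes without such a value.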

Additional observations from a re-analysis of the deposited data

How the results depend on the processing

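The fall of Mrc1 kept its direction and its call in all 13 alternatives, so 1 receptor was lower in each of them. The count of higher receptors, 0, became 1, Clec4d, without genes with shared windows and, among the fits leaving out 1 library, ranged from 0 to 1. At an unadjusted limma p under 0.05, 1 of 8 tested receptors was higher, Clec4d, and 1 lower, Mrc1. At that threshold 3725 of all 10594 tested genes differed in either direction. Sign changes were seen only in receptors that were not called. Clec4n had log2 fold changes of -0.05 after quantile normalization, -0.0020 rescaled to a sum of 1000000, and -0.05 to 0.07 when single libraries were left out. Clec5a was at -0.07 to 0.25 and Clec10a at -0.01 to 0.09 when single libraries were left out. Of all tested genes 859 were higher and 1130 lower. With the replicate block these were 520 and 559, and leaving out 1 library they ranged from 499 to 671 and from 465 to 869. After median-of-ratios rescaling 55.6% of called genes were higher, against 43.2% as deposited. The median log2 fold change of all tested genes was -0.0004 after that rescaling and -0.02 as deposited. With the replicate block 3 adaptor and signalling genes were higher and 1 lower. The labels do not say that shared replicate numbers pair the samples. The correlations of deviations from the group means were 0.01, 0.01 and 0.05 for libraries with the same number. For the other combinations they ran from -0.09 to 0.07. With 3 libraries per group these values cannot decide whether the samples were paired. The unknown depth limits what can be said of Clec4a2, Clec12a, Clec4n and Mrc1, the 4 receptors with the lowest values.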
